A study of Mus musculus with 28 samples.

Results

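Oct4 binding in mouse embryonic stem cells (mESCs) without Spen was described from the peaks of 4 ChIP-seq libraries, WT R1, WT R2, Spen KO R1 and Spen KO R2. All 11562 Oct4 peaks of these lists were merged where they shared at least 1 bp, which gave 7698 Oct4 sites, and each site was recorded as called or not called in each library. The Oct4 peaks were part of 227343 peaks in the 10 peak lists analysed, the others being lists of the histone marks H3K27Ac, H3K4me3 and H3K9me3. WT R1 held 1806 peaks, WT R2 4111, Spen KO R1 2617 and Spen KO R2 3028. The WT cells were HATX, a haploid mESC line with a doxycycline-inducible Xist transgene, and the Spen KO cells were its knockout clone 2, so the Spen KO group was a single clone. Both were grown in serum with LIF, both carried a mixed genomic background, and the labels give no doxycycline treatment. The Oct4 antibody was the same in all 4 libraries, and each genotype had its own inputs. The study calls its pairs of libraries technical replicates, so every spread below is between libraries and not between cultures. The lists give fold enrichment over input for each peak and no read numbers, so sequencing depth is unknown. All positions are in mm9 with starts counted from 1.

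Oct4, encoded by Pou5f1, is a POU-domain factor that holds mESCs in the pluripotent state. It reads an octamer in DNA and often binds beside its partner Sox2 on a joined Sox-Oct element, mostly at enhancers away from promoters. Spen is an RNA-binding corepressor that acts with Xist on the X chromosome and recruits histone deacetylase complexes. Of the histone marks, H3K27Ac lay at marker genes of mESCs and not at those of other cells. The transcription start sites (TSSs) of Pou5f1, Sox2, Nanog, Esrrb and Zfp42 had H3K27Ac, an acetylation found at active regulatory elements, in both genotypes' lists. The fibroblast genes Thy1, Col1a1 and Col1a2 and the primitive endoderm genes Gata6, Gata4 and Sox17 had none in either list. H3K4me3 lay at the TSSs of all these genes in both genotypes' lists, so it did not separate the sets. H3K9me3 lay at Nanog and Gata4, in the WT list alone.

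The sequences at some sites are shown first, because the sites differed in what they held. The windows below were read from the mm9 sequence. The Sox-Oct core searched here was TTGTNATGC on either strand, and capitals mark it. Over all sites, the core lay within 100 bp of the summit in 8.42% of those called in 3 libraries and 9.33% of those called in all 4. For each gene of the lists described further on, the site called in the most libraries was taken. This gave 41 sites called in at least 3 libraries, of which 4 held the core. They were chosen after their values were seen, and each is written on the strand that carries the core.
Pou5f1, chr17:35640988-35641016, minus strand, 1594 bp from the TSS: tcatgcacctTTGTTATGCatctgccgtc
Rif1, chr2:51927764-51927792, plus strand, 80 bp from the TSS: ttccaggcctTTGTTATGCacgccatggg
Rest, chr5:77691357-77691385, minus strand, 2978 bp from the TSS: gtccttcgtaTTGTGATGCaaataggcca
Suv39h1, chrX:7628315-7628343, minus strand, 22920 bp from the TSS: gagatgagcaTTGTCATGCtatttggagc

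The cores at Pou5f1 and Rif1 had the same 9 bases. The Pou5f1 and Rif1 sites were called in all 4 libraries, and those at Rest and Suv39h1 in WT R2 and both Spen KO libraries. The next windows hold 121 bases around the summit of the site with the highest mean fold enrichment in each of 4 patterns of libraries, on the plus strand. Capitals mark the octamer with any base at position 5, ATGCNAAT, or the Sox-Oct core. The patterns were WT R2 with both Spen KO libraries (Gtdc1), both Spen KO libraries alone (Vmn2r3), both WT libraries alone (Tmem181a) and WT R1 alone (Khsrp).
Gtdc1, chr2:44381065-44381185: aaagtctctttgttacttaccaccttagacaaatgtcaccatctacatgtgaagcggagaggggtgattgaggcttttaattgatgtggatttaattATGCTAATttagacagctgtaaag
Vmn2r3, chr3:64125907-64126027: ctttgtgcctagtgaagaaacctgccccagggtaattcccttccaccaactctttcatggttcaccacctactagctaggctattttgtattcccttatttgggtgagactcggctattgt
Tmem181a, chr17:6267672-6267792: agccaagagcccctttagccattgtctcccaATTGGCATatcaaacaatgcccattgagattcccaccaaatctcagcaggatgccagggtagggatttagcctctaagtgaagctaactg
Khsrp, chr17:57171006-57171126: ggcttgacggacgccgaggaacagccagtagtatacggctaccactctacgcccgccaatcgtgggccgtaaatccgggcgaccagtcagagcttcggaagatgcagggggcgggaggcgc

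The Gtdc1, Vmn2r3 and Tmem181a windows were intergenic, 45560, 34384 and 2392 bp from the TSS of the named gene. The Khsrp window was in a promoter, 44 bp from the TSS. Neither motif lay in the Vmn2r3 and Khsrp windows. The window of the strongest site of all 4 libraries, at Mll1, is not printed and also held neither, while that of the next, in Abca4, held both. The Abca4 window is made up of similar short units, and its site overlapped H3K9me3 in the WT list alone. The second site of WT R2 with both Spen KO libraries, near Pja1, held neither motif in its window.

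Most Oct4 sites were called in a single library. Of the 7698 sites, 5394 (70.1%) were called in 1 library, 1239 (16.1%) in 2, 797 (10.4%) in 3 and 268 (3.48%) in all 4. WT R2 alone gave 2189 sites, WT R1 alone 1294, Spen KO R1 alone 982 and Spen KO R2 alone 929. The most frequent combination was WT R2 with both Spen KO libraries, at 698 sites. The other combinations of 3 libraries all included WT R1 and held 59, 28 and 12 sites. The median width was 166 bp for sites of 1 library and 528.5 bp for those of all 4. A site spans all its merged peaks, so merging itself widens sites called in more libraries.

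**Figure D1:**
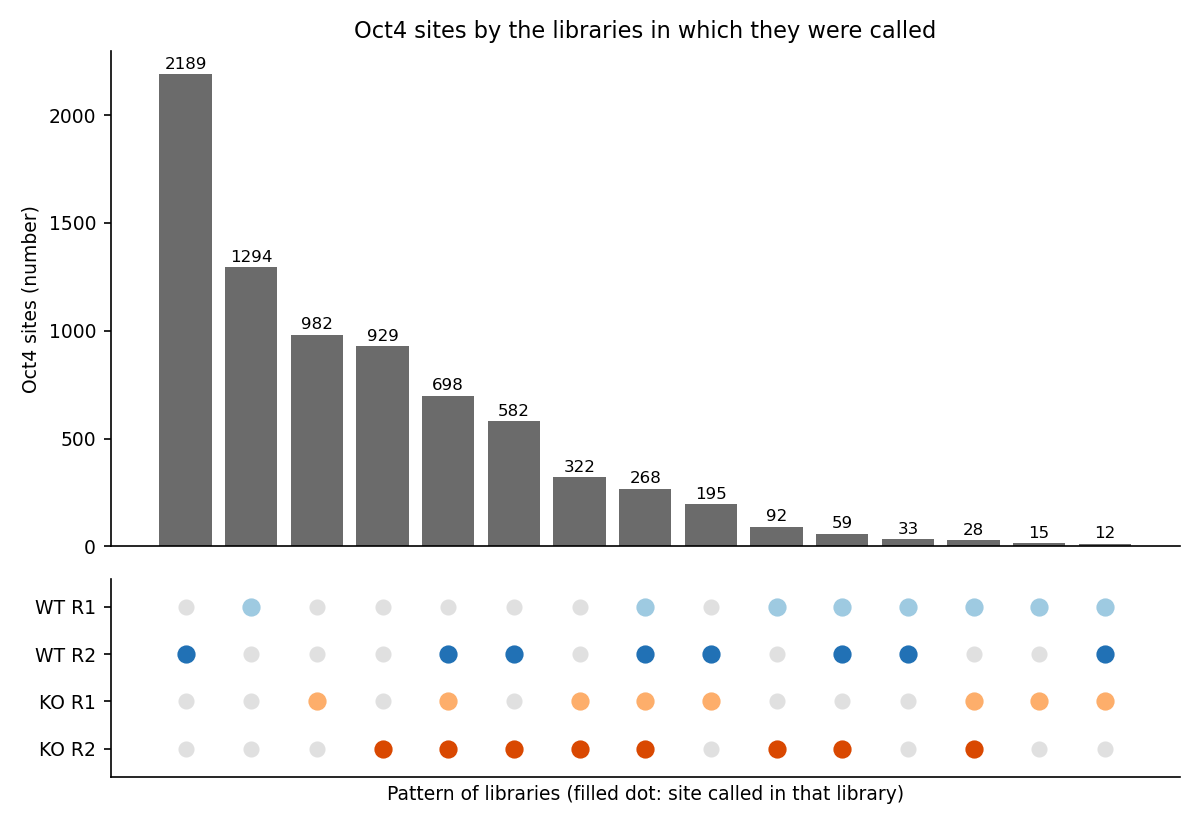
Number of Oct4 sites (bars) for each combination of libraries, with filled dots below marking the libraries in which the sites were called. The 698 sites of WT R2 with both Spen KO libraries outnumber the 268 sites of all 4 libraries, and the 322 sites of the Spen KO pair alone lie between the 582 of WT R2 with Spen KO R2 and the 195 of WT R2 with Spen KO R1.

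In WT R2 and both Spen KO libraries, the strongest sites recurred most often. Sites of a library were split into 4 equal classes by their fold enrichment in that library. In WT R2, 75.6% of the strongest class were also called in at least 1 other library, against 32.8% of the weakest. The same shares were 87.1% and 42.2% in Spen KO R1, and 91.8% and 56.4% in Spen KO R2. In WT R1 they were 29.1% and 30.8%, and 12 of its 18 sites at 10-fold or more (66.7%) were shared. Also at 10-fold or more, none of the 93 sites of Spen KO R1 and none of the 194 of Spen KO R2 were called there alone, and 7.14% of the 280 sites of WT R2 were. Of those 280 sites, 89.3% were called in Spen KO R2, 76.1% in Spen KO R1 and 55.7% in WT R1. The strong sites were therefore shared across genotypes: 207 of the 280 were called in both Spen KO libraries and 24 in neither. Of 49 sites at 10-fold or more in both Spen KO libraries, 48 were called in WT R2 and 36 in WT R1. A site missing from a list can lie just under its threshold, since the weakest peak kept had a −log10 q of 2.12 in WT R1, 2.05 in WT R2, 2.27 in Spen KO R1 and 2.00 in Spen KO R2.

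**Figure D2:**
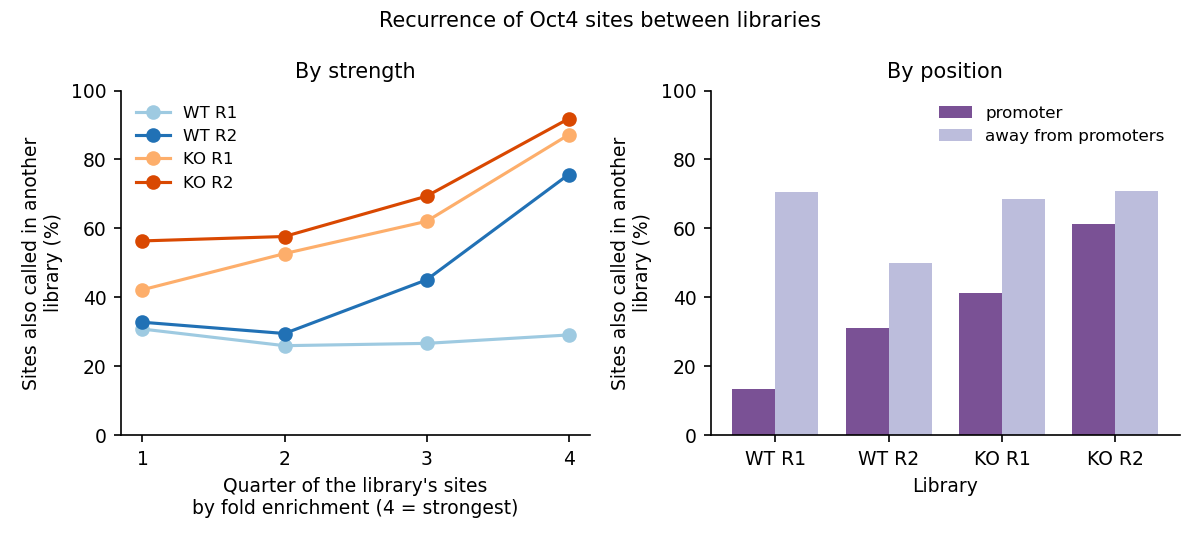
Share of each library's Oct4 sites that were also called in another library (y axis, %), by class of fold enrichment in that library (4 equal classes) (left) and by position within 1000 bp of a protein-coding TSS or farther away (right). The share climbs to 75.6% or more in the strongest class of WT R2 and both Spen KO libraries and stays at 29.1% in WT R1, where 13.3% of promoter sites and 70.7% of the others recurred.

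WT R1 held sites of a different kind from the other libraries. A protein-coding TSS lay within 1000 bp, here called a promoter, for 73.9% of its peaks, against 21.9% in WT R2, 26.9% in Spen KO R1 and 21.2% in Spen KO R2. Of the 1294 sites called in WT R1 alone, 89.5% (Wilson 95% interval 87.7 to 91.0) were at promoters, and their median distance to a TSS was 13 bp. Intervals on shares of sites cover counting error only. The strongest of these sites were at the promoters of Khsrp (11.3-fold), Mtmr4 (10.8), Mbd3 (10.4) and Gatad2a (10.4). Mbd3 and Gatad2a encode subunits of the NuRD corepressor complex. Of the 464 sites of WT R1 away from promoters, 64.4% were called in WT R2, 50.9% in Spen KO R1 and 62.1% in Spen KO R2, while the 1334 promoter sites recurred there in 5.40%, 6.52% and 11.8%. The same 299 sites that WT R1 shared with WT R2 away from promoters were 9.54% of the 3134 such sites of the longer WT R2 list.

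Sites particular to a genotype were counted next. The Spen KO pair alone, meaning R1 and R2 of that genotype without a WT call, held 322 sites, and the WT pair alone held 33. This count asks both WT libraries to agree, and WT R1 agreed little with any library, so the counts of other pairs are set beside it. WT R2 and Spen KO R2 alone shared 582 sites, and WT R2 and Spen KO R1 alone shared 195. The Spen KO pair alone therefore fell between the pairs made across genotypes. When every list was cut to the 1806 strongest peaks, the Spen KO pair alone held 310 sites, WT R2 with Spen KO R2 247, WT R2 with Spen KO R1 146 and the WT pair 43. A site can enter a pair at this setting by losing its call in another library, and how many of the 310 were among the 322 was not counted. At equal length the Spen KO pair was thus the largest of the 6 pairs, and with the lists as deposited it was the second. With 2 libraries a genotype these counts have no test.

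The 322 sites of the Spen KO pair were of middle strength. Their median fold enrichment was 6.50 in Spen KO R1 and 6.57 in Spen KO R2, against 8.10 and 9.47 at the 268 sites of all 4 libraries. Of the 322, 21.7% (17.6 to 26.6) were at promoters, 24.8% in introns and 50.9% between genes. Of the 268, 19.0% (14.8 to 24.2) were at promoters. Only 12 sites with no WT call reached 10-fold in a Spen KO library. The strongest was an intergenic site 34384 bp from the TSS of Vmn2r3, a vomeronasal receptor gene, at 11.2-fold in Spen KO R1 and 10.6-fold in Spen KO R2. The next was 20722 bp from Fbrsl1 at 11.5 and 9.13, and another 27340 bp from Aldh1b1, which encodes an aldehyde dehydrogenase, at 10.7 and 9.73. Others lay in an intron of Myo10 (11.2 and 7.62), 5509 bp from Sox21 (7.48 and 10.8) and in an intron of Eif4g3 (6.86 and 11.3). Of the 33 sites of the WT pair, the strongest lay 2392 bp from Tmem181a, at 7.70-fold in WT R1 and 13.9-fold in WT R2. The second lay in an intron of Reep3, at 7.19 and 13.9. Of 280 sites at 10-fold or more in WT R2, the 24 with no Spen KO call were led by 0610012H03Rik, Gm7334, Tmem181a and Frmd4a as nearest genes.

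Fold enrichment at the sites of all 4 libraries did not separate the genotypes. The median over the 268 sites was 6.55 in WT R1, 9.80 in WT R2, 8.10 in Spen KO R1 and 9.47 in Spen KO R2. The log2 medians averaged 3.00 ± 0.41 (SD, n = 2) in WT and 3.13 ± 0.16 in Spen KO, or 0.13 apart (p = 1, exact permutation test, two-sided). The Spen KO libraries lay between the WT libraries, and against WT R2 alone the difference was -0.16. With 2 libraries on each side, 0.333 is the smallest two-sided p of this exact test. Site by site, limma on log2 fold enrichment centred on each library's median called 0 of 268 sites (0%) at a Benjamini-Hochberg adjusted p of 0.05, and 14 had an unadjusted p under 0.05. Leaving WT R1 out and using the 966 sites of WT R2 and both Spen KO libraries also gave 0 calls, with 73 under 0.05 unadjusted. In that fit WT is 1 library, assumed to vary like the Spen KO libraries, so its 0 calls say little about the genotypes.

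The 10 sites with the smallest p all had an adjusted p of 0.745 in limma and are given as values. A small p favours sites with both libraries of a genotype on the same side, so the orders below follow from the choice. Near St6galnac3, a sialyltransferase gene, the fold enrichments were 4.90 in WT R1, 6.15 in WT R2, 10.7 in Spen KO R1 and 14.0 in Spen KO R2, a centred log2 difference of 1.02 ± 0.28 (SE). Both Spen KO libraries were above both WT libraries there. The Gsk3a promoter, at a kinase gene of the Wnt pathway, had 6.71, 12.7, 16.7 and 17.1 in the same order, a difference of 0.75 ± 0.29. The site at Cnpy1 had 5.75, 11.0, 13.0 and 16.6, and the one nearest Zmat4 had 6.65, 11.4, 16.2 and 15.2. At these sites too both Spen KO values were the higher ones. The opposite order stood at the site nearest Gm13145, with 5.60, 10.2, 4.43 and 4.07, a difference of -0.96 ± 0.29. Both Spen KO values were also the lower ones at the sites nearest Gm10139, Anubl1, Mcf2l and Pla2g10. Near Gm10032, in an intron of Adra1a, the values were 12.3, 23.1, 7.86 and 11.7, so both Spen KO values were the lower ones there as well, with Spen KO R2 close to WT R1. Across the 268 sites, the log2 values of Spen KO R1 and Spen KO R2 correlated at 0.43 (Pearson), WT R2 with them at 0.36 and 0.33, and WT R1 with the other libraries at 0.15 to 0.27. All points share the calling of the sites, so these correlations are a description.

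Of the 8 strongest sites of all 4 libraries, those of Mll1, Gsk3a and Rif1 were at promoters and the other 5 in introns or between genes. The highest mean was at the promoter of Mll1, a histone H3K4 methyltransferase gene, at 19.0-fold in WT R1, 31.5 in WT R2, 20.6 in Spen KO R1 and 9.22 in Spen KO R2. Spen KO R2 was the lowest there. An intron of Abca4 came next, at 13.5, 11.1, 17.3 and 23.6. The Rif1 promoter, at a gene for a replication timing and telomere protein, had 8.78, 19.6, 14.3 and 10.4. The site 1129 bp from Mycn, a Myc family gene, had 8.27, 15.8, 13.7 and 12.6. WT R2 was the highest library at Mll1, Rif1 and Mycn, and Spen KO R2 at Abca4. Of the 698 sites without WT R1, the strongest was the one near Gtdc1, at 12.4-fold in WT R2, 14.96 in Spen KO R1 and 15.8 in Spen KO R2. It was followed by one on the X chromosome 85514 bp from Pja1 (19.6, 8.66 and 14.5) and one near Cobl (13.0, 11.2 and 12.9).

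Octamers gathered at the summits in all 4 libraries. The octamer ATGCAAAT, on either strand, lay within 100 bp of the summit in 3.22% of WT R1 peaks, 4.95% of WT R2, 4.10% of Spen KO R1 and 5.72% of Spen KO R2. Of all 200 bp tiles of mm9, 1.74% held it, and windows 1000 bp from the summits held it in 0.721% to 1.14%. The means were 4.08 ± 1.22% (SD, n = 2) in WT and 4.91 ± 1.15% in Spen KO (p = 0.667, exact permutation test), and the Spen KO mean was 0.038 percentage points under WT R2. The Sox-Oct core, added after the octamer counts were seen, was in 2.00%, 4.53%, 4.22% and 6.98% of peaks in the same order, against 0.527% of tiles. The core may overlap an octamer at the same place, so the 2 counts are not independent.

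Sites called in more libraries held the motifs more often. The octamer lay in 9.33% (6.40 to 13.4) of the 268 sites of all 4 libraries, 5.59% (4.11 to 7.55) of the 698 without WT R1 and 5.28% (3.32 to 8.29) of the 322 of the Spen KO pair. It lay in 4.53% of the sites of Spen KO R2 alone, 3.94% of those of WT R2 alone, 1.54% of those of Spen KO R1 alone and 1.08% of those of WT R1 alone. The shares of Spen KO R1 alone and WT R1 alone were under the 1.74% of all tiles. Windows 1000 bp from WT R1 summits held the octamer in 0.721%. The core lay in 9.33%, 9.17% and 7.14% of the first 3 groups, and in 4.85%, 2.56%, 1.23% and 0.232% of the sites of Spen KO R2, WT R2, Spen KO R1 and WT R1 alone. Other motifs marked WT R1. The letters of an Ets site, CCGGAAGT, lay in 3.16% of WT R1 peaks and 0.562% to 0.805% of the others, and those of an Nrf1 site, GCGCATGC, in 2.05% and 0.595% to 0.766%. Ets factors and Nrf1 are known at promoters of widely expressed genes. The windows of 200 bp at the summits had 61.8% G and C in WT R1, 54.9% in WT R2, 53.8% in Spen KO R1 and 52.8% in Spen KO R2, and 41.8% over the genome's tiles. The lower G and C share in Spen KO (53.3 ± 0.69% against 58.4 ± 4.90%) had the smallest p that the design allows, 0.333 (exact permutation test), and was -1.59 points against WT R2 alone.

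**Figure D3:**
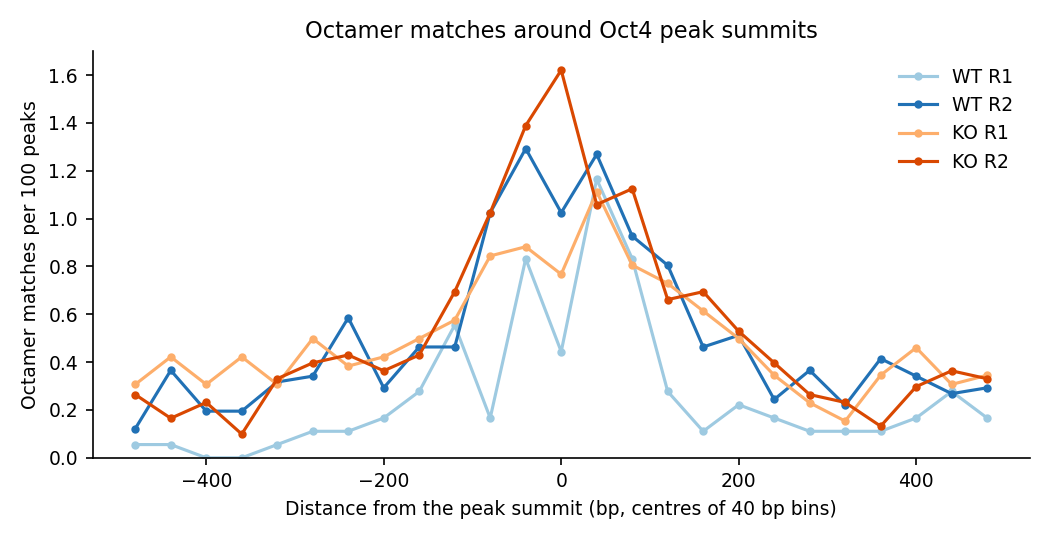
Octamer matches per 100 peaks (y axis) by distance from the peak summit in 40 bp bins (x axis, bp), for each Oct4 library. Matches rise within about 100 bp of the summits in all 4 libraries, up to 1.62 per 100 peaks in Spen KO R2 and 1.17 in WT R1.

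Multi-copy sequence differed between patterns of libraries. A peak was counted as multi-copy where at least 50% of its 31-base words occurred at least 10 times in mm9. This held for 2.72% of peaks in WT R1, 6.22% in WT R2, 7.20% in Spen KO R1 and 3.01% in Spen KO R2, so the libraries of each genotype differed from each other by more than the genotype means did. Among sites it held for 14.3% (12.3 to 16.7) of those of Spen KO R1 alone, 13.4% of those of WT R2 with Spen KO R1, 9.34% of those of WT R2 alone, 2.48% of those of WT R1 alone, 3.11% (1.70 to 5.62) of those of the Spen KO pair and 1.87% of those of all 4 libraries. The alignments behind the lists are not named in the methods, and the part of multiply mapping reads in these shares was not tested.

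A larger share of Oct4 peaks overlapped H3K27Ac in the Spen KO libraries than in the WT libraries. By number, 642 peaks did so in WT R1, 1602 in WT R2, 1396 in Spen KO R1 and 1568 in Spen KO R2. Of the Oct4 peaks, 35.6% in WT R1 and 39.0% in WT R2 overlapped an H3K27Ac peak of either genotype, against 53.3% in Spen KO R1 and 51.8% in Spen KO R2. The means were 37.3 ± 2.42% (SD, n = 2) in WT and 52.6 ± 1.10% in Spen KO, which differ by 15.3 points, and both Spen KO libraries were above both WT libraries (p = 0.333, exact permutation test, the smallest possible). The difference was 13.6 points against WT R2 alone. It was 15.3 points when all libraries were set against the WT list of H3K27Ac and 14.0 against the Spen KO list. It was 15.9 points at promoters and 14.8 points away from them, where the Spen KO means were 50.9% and 53.1% against 35.0% and 40.1% in WT R2 alone, and 16.9 points when all lists were cut to 1806 peaks. The split by position and the single lists were added after the first values were seen. Sites of WT R2 alone overlapped H3K27Ac in 28.1% of cases, against 45.4% of sites of Spen KO R1 alone and 46.8% of sites of Spen KO R2 alone. The 698 sites that WT R2 shared with both Spen KO libraries overlapped it in 65.0% (61.4 to 68.5), and the 322 of the Spen KO pair in 63.0% (57.7 to 68.1). Of those 322 sites, 50.0% were in the H3K27Ac lists of both genotypes, 9.32% in the Spen KO list alone and 3.73% in the WT list alone. Over all 7698 sites those shares were 28.8%, 6.99% and 5.11%.

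**Figure D4:**
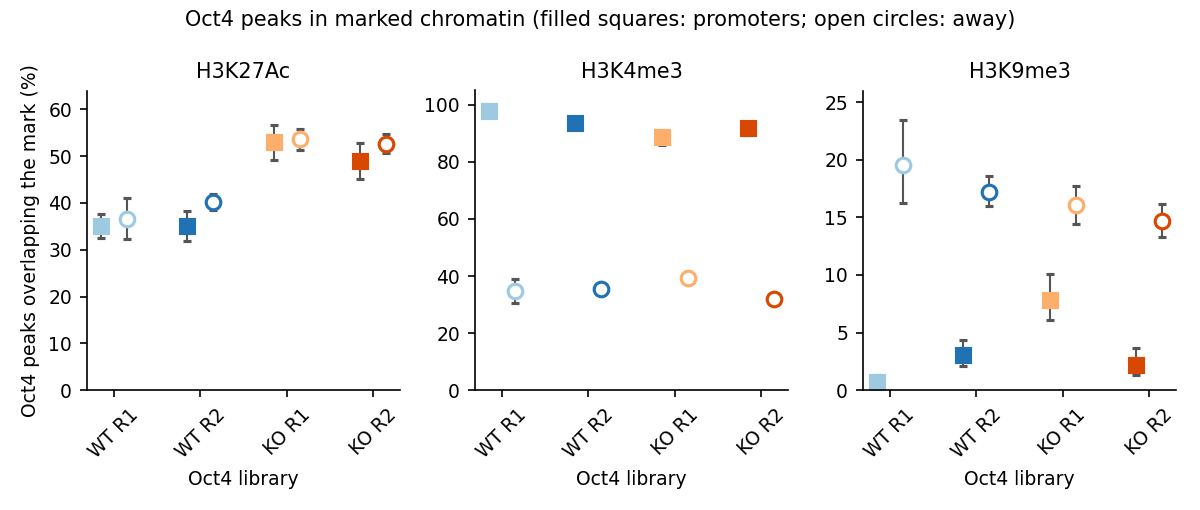
Share of Oct4 peaks (y axis, %) that overlap H3K27Ac, H3K4me3 or H3K9me3 peaks of either genotype in each Oct4 library, at promoters (filled squares) and away from them (open circles), with Wilson 95% intervals. For H3K27Ac the Spen KO libraries sit between 48.9% and 53.6% and the WT libraries between 35.0% and 40.1%, while H3K4me3 separates promoters from other peaks in every library.

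H3K4me3, a mark of promoters, followed the position of the peaks. It overlapped 81.3% of Oct4 peaks in WT R1, 48.3% in WT R2, 52.4% in Spen KO R1 and 44.6% in Spen KO R2, and the Spen KO mean was 0.228 points above WT R2. H3K9me3, a mark of silenced chromatin, overlapped 5.59%, 14.1%, 13.8% and 12.0%, and the Spen KO mean was 3.07 points above that of WT (p = 1, exact permutation test). At promoters the H3K9me3 shares were 0.675%, 3.01%, 7.82% and 2.18%, with the Spen KO mean 3.16 points higher (p = 0.667, exact permutation test). Away from promoters the H3K9me3 shares were 19.6% and 17.2% in WT R1 and WT R2 and 16.0% and 14.7% in Spen KO R1 and Spen KO R2, or -3.03 points for Spen KO minus WT (p = 0.333, exact permutation test). The direction of the means at promoters and away from them thus differed, and without WT R1 the comparison away from them is 15.4% against 17.2%. At promoters the higher Spen KO mean rested mostly on Spen KO R1 (7.82%), while Spen KO R2 at 2.18% was under WT R2 at 3.01%. H3K4me3 at promoters was -5.55 points for Spen KO minus WT (p = 0.333, exact permutation test), at 90.2% on average in Spen KO against 93.6% in WT R2.

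Oct4 sites in chromatin that had H3K9me3 in WT cells alone were few. A site was counted here when it overlapped a domain of the WT list and none of the Spen KO list. This held for 24 of the 322 sites of the Spen KO pair (7.45%, 5.06 to 10.9), 31 of 698 (4.44%, 3.15 to 6.24) of WT R2 with both Spen KO libraries, 30 of 582 (5.16%) of WT R2 with Spen KO R2, 6 of 268 (2.24%) of all 4 libraries and 3 of 33 (9.09%, 3.14 to 23.6) of the WT pair. Among sites of 1 library it held for 60 of 929 (6.46%) in Spen KO R2, 33 of 982 (3.36%) in Spen KO R1 and 80 of 2189 (3.66%) in WT R2. Over all sites it was 282 of 7698 (3.66%). Of the 24, 16 overlapped H3K27Ac in both genotypes' lists, 4 in the Spen KO list alone, 0 in the WT list alone and 4 in neither. Only 1 of the 24 was multi-copy and 1 was at a promoter, that of Nnmt, a nicotinamide methyltransferase gene (6.68-fold in Spen KO R1 and 5.59-fold in Spen KO R2). The 4 sites with H3K27Ac in the Spen KO list alone were nearest Gucy1a2 (7.48 and 6.30), Car2 (6.50 and 7.03), Nxph1 (6.23 and 6.66) and Nnmt. Pairs of the 24 stood close together near Tlr2, a receptor of innate immunity, and near AI427809. These sites were chosen after their values were seen.

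Oct4 sites stood near listed pluripotency genes in both genotypes. A gene was counted when a site called in at least 2 libraries lay within 50 kb of its TSS. This held for 63 of 123 genes in 7 lists (51.2%), against 13.8% of 22367 protein-coding genes. By list it held for 14 of 20 core pluripotency factors, 18 of 22 Oct4 target and signalling genes, 8 of 13 genes of primed pluripotency, 6 of 12 genes of the LIF and STAT3 pathway, 7 of 18 early lineage regulators, 6 of 19 genes of the H3K9me3 silencing machinery and 4 of 19 Spen paralogs and corepressor partners. Of the listed symbols, 2 were not found in the annotation. The lists were chosen with earlier results of these data known and include Oct4 targets, so the comparison with all genes is a description. Per library, 45 of the 123 genes had a site in WT R1 (18.8% of all genes), 71 in WT R2 (19.8%), 60 in Spen KO R1 (15.1%) and 67 in Spen KO R2 (16.6%). WT R1 thus had the fewest listed genes while its share of all genes was close to that of WT R2. With lists cut to 1806 peaks the counts were 45, 54, 50 and 53, and the shares of all genes 18.8%, 10.4%, 11.9% and 11.1%.

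**Figure D5:**
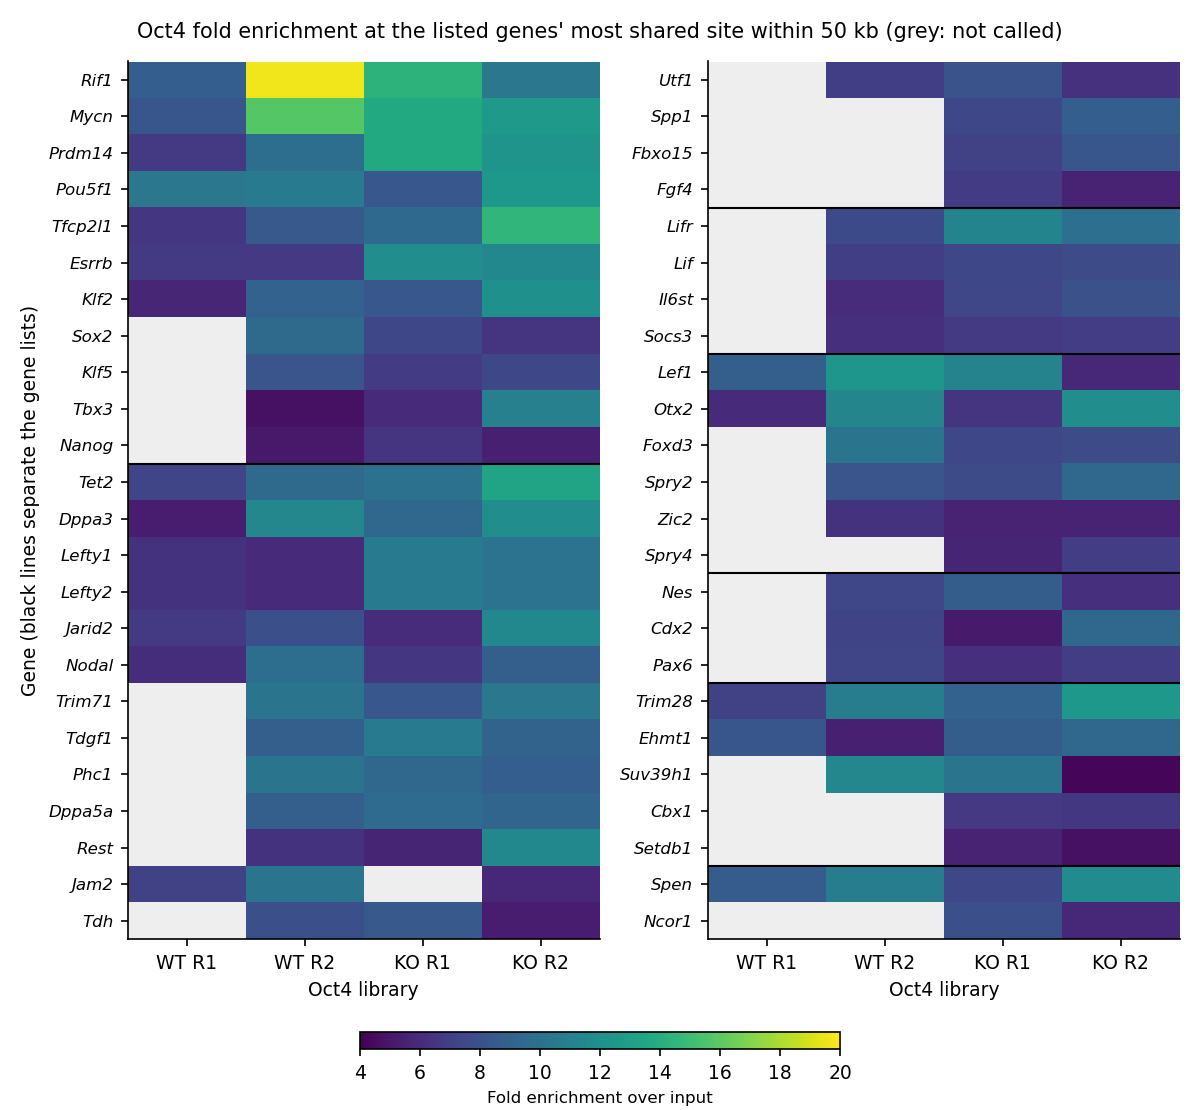
Fold enrichment over input (colour scale) in each Oct4 library at the site within 50 kb of a listed gene that was called in the most libraries, for 41 of the 42 genes with a site in at least 3 libraries (1 is not shown) and the 7 whose best site was called in both Spen KO libraries alone. Grey marks libraries without a call, black lines separate the gene lists, and most grey cells are in WT R1.

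Core pluripotency factors carried Oct4 in both genotypes. The site 1594 bp from the TSS of Pou5f1 itself was called at 10.4-fold in WT R1, 10.6 in WT R2, 8.35 in Spen KO R1 and 12.5 in Spen KO R2. The site 2146 bp from a TSS of Esrrb, an orphan nuclear receptor of naive mESCs, had 6.74, 6.66, 11.8 and 11.5 in the same order. That 1405 bp from Tfcp2l1, another naive factor, had 6.55, 8.45, 9.45 and 14.5. In Esrrb and Tfcp2l1 both Spen KO values were above both WT values, and at Pou5f1 they lay on either side of them. Prdm14, a repressor of the primed state, had 6.71, 9.80, 13.7 and 12.3 at a site 41702 bp away. Klf2 had 5.74, 9.01, 8.35 and 12.0 at 2248 bp.

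Sox2 and Nanog had no site in WT R1. The site 18222 bp from Sox2 was called at 9.50 in WT R2, 7.48 in Spen KO R1 and 6.39 in Spen KO R2, and that 4431 bp from Nanog at 5.07, 6.50 and 5.43. A stronger site at the Nanog promoter, with a Sox-Oct core, was called in WT R2 (6.27) and Spen KO R2 (8.80). Sox2 had 2 sites within 50 kb in WT R2, 6 in Spen KO R1 and 4 in Spen KO R2. Klf5 had 8.24, 6.86 and 7.46 at a site 41049 bp away, and Tbx3 had 4.70, 5.90 and 10.9 at its promoter. Nr5a2 (8.24) and Zfp42 (6.97) had promoter sites in WT R2 alone, and Klf4 (5.59) and Stat3 (7.12) in WT R1 alone. Just outside the 50 kb window, Klf4 was the nearest gene of 2 sites of all 4 libraries. One, 53854 bp away, had 8.46 in WT R1, 8.12 in WT R2, 12.1 in Spen KO R1 and 13.2 in Spen KO R2, and the other, 55919 bp away, had 7.31, 13.3, 6.69 and 12.1. Sall4, a zinc finger factor, was called in WT R2 (6.76) and Spen KO R1 (9.35).

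Among Oct4 targets, sites in all 4 libraries stood near Dppa3, Lefty1 and Lefty2, Nodal, Jarid2 and Tet2. Dppa3, a maternal factor of the early embryo, had 5.28, 11.4, 9.35 and 11.8 at a site 1336 bp from its TSS that holds an octamer. Lefty1 and Lefty2, antagonists of the ligand Nodal, shared a site at 6.35, 5.88, 10.6 and 10.1, with both Spen KO values the higher ones. Nodal itself had 6.08, 9.80, 6.55 and 8.85. Tet2, which oxidises methylcytosine, had 7.31, 9.50, 9.97 and 13.4, and Jarid2, a Polycomb subunit, had 6.74, 7.88, 6.03 and 11.5. Without WT R1, sites were called near Utf1, Tdgf1, Dppa5a, Trim71, Phc1, Tdh and Rest. At Tdgf1, a coreceptor of Nodal, the values were 8.87 in WT R2, 10.6 in Spen KO R1 and 9.07 in Spen KO R2.

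Some targets were called in the Spen KO pair alone. Of the 123 genes, 16 (13.0%) had such a site within 50 kb, against 2.46% of all protein-coding genes, and 0 had a site of the WT pair alone, against 0.232%. The WT pair needs a call in WT R1 and held only 33 sites in all. The listed genes also had a site in WT R2 more often than all genes, at 57.7% against 19.8%. Sites of pairs made across genotypes were not counted for these genes. Of the 16, 11 had another site in WT R2 within the same 50 kb. Spp1, which encodes osteopontin, had no WT site at all and 2 sites of the Spen KO pair: one 741 bp from its TSS, at 7.48-fold in Spen KO R1 and 5.86 in Spen KO R2, and one 6592 bp away, at 7.48 and 8.80. Fbxo15, a known Oct4 target, had a promoter site at 7.09 and 8.27, and Fgf4, a signal for exit from the naive state, a site at 3153 bp with 6.86 and 5.59. Fgf4 had a further site in WT R2, and Fbxo15 one in WT R1. Dppa5a had a promoter site with a Sox-Oct core at 6.96 and 8.27 and Sox2 a promoter site at 11.8 and 5.26. The 16 genes had 19 such sites, of which 14 lay in H3K27Ac of both genotypes' lists. The genes belonged to 6 of the 7 lists, and none to the LIF and STAT3 pathway.

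LIF signalling keeps mESCs undifferentiated through its receptor chains and STAT3. The site near the ligand gene Lif had 6.97 in WT R2, 7.48 in Spen KO R1 and 7.65 in Spen KO R2. Lifr had 7.60, 11.2 and 9.87, Il6st, the other receptor chain, 6.05, 7.42 and 8.00, and the feedback inhibitor Socs3 6.20, 6.72 and 6.93. Each of these 4 sites was without a call in WT R1, and both Spen KO values were above WT R2. Pim1, a kinase gene of the same list, went the other way, at 8.24 in WT R2, 6.23 in Spen KO R1 and no call in Spen KO R2, and Bcl3 had its best site in WT R2 alone (6.34). Medians over the 698 sites without WT R1 were 7.26 in WT R2, 6.86 in Spen KO R1 and 7.10 in Spen KO R2. The share of those sites with both Spen KO values above WT R2 was not counted. Among genes of primed pluripotency, Otx2 had 5.91, 11.3, 6.50 and 11.8 in all 4 libraries, and Lef1 had 8.85, 12.4, 11.2 and 5.79. Foxd3 had 10.1, 7.48 and 7.73 without WT R1.

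Early lineage regulators showed the largest gap between the WT libraries. Of all protein-coding genes, 19.8% had a site in WT R2, 18.8% in WT R1, 15.1% in Spen KO R1 and 16.6% in Spen KO R2. Of 18 lineage genes, 14 had a site in WT R2 and 1 in WT R1, with 5 in Spen KO R1 and 8 in Spen KO R2. With lists cut to 1806 peaks, the counts were 9 in WT R2, 1 in WT R1, 4 in Spen KO R1 and 5 in Spen KO R2. The sites of Cdx2, a trophectoderm factor, were called at 7.27 in WT R2, 5.17 in Spen KO R1 and 9.34 in Spen KO R2, and those of Pax6, a neural and eye factor, at 7.32, 6.23 and 6.93. Eomes, T and Sox17 had their best site in WT R2 alone, at 4.50, 4.70 and 7.60. The sites of Cdx2, Pax6 and Nes overlapped no H3K27Ac peak of either genotype.

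The H3K9me3 silencing genes had sites in 6 or 7 of 19 genes in every library (31.6% or 36.8%). Of all protein-coding genes, 18.8% had a site in WT R1, 19.8% in WT R2, 15.1% in Spen KO R1 and 16.6% in Spen KO R2. Within 10 kb, 3 or 4 of the 19 silencing genes had a site in each library, against 5.88% to 8.94% of all genes. Trim28, the corepressor that recruits Setdb1 to repeats, had 7.12 in WT R1, 10.7 in WT R2, 9.04 in Spen KO R1 and 12.5 in Spen KO R2 at a site 9455 bp from its TSS. Ehmt1 had 8.27, 5.41, 8.73 and 9.34, and Suv39h1, an H3K9 methyltransferase gene, 11.4, 10.2 and 4.21 without WT R1. Spen itself had a site in all 4 libraries 26580 bp from its TSS, at 8.66, 10.7, 7.48 and 11.7. The site counted for Ncor1, a corepressor gene, 36162 bp from its TSS, was called in the Spen KO pair alone at 7.91 and 5.86, in an intron of Pigl. Of the 19 Spen paralogs and partners, 10 (52.6%) had a site in WT R1, against 5 (26.3%) in WT R2, 6 (31.6%) in Spen KO R1 and 6 (31.6%) in Spen KO R2. Within 10 kb the counts were 5, 3, 2 and 2. For Mbd3, Gatad2a and Rbm15 the site called in the most libraries was in WT R1 alone and at the gene's own promoter. For Mta1, Mta2, Rbm15b and Wtap it was in WT R1 alone and at another gene's promoter.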

How the data were processed

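Oct4 ChIP-seq peak lists of 2 WT and 2 Spen KO libraries were analysed. In the study's methods, the authors used Bowtie2 with mm9 and retained uniquely placed concordant pairs without duplicates (Picard), and MACS2 called peaks against input below a q-value of 0.01. Tool versions are not given in the sources used here. The deposited Oct4 lists hold, for each peak, the fold enrichment over input as a linear ratio and the p and q values as −log10. The deposited histone lists hold 1 set of intervals per genotype, and their positions alone were used. MACS2 is named in the methods for all histone libraries, yet the H3K9me3 files have another layout, so how those domains were made is uncertain. The authors also realigned the data with each multiply mapping read placed at 1 random position, and which alignments the deposited lists came from is not stated.

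Peaks of all libraries were merged at 1 bp of overlap, and a site's value in a library was its largest fold enrichment there. Distances were taken to TSSs of protein-coding genes of GENCODE vM1, and motifs were searched within 100 bp of summits on both strands. Library values were compared with two-sided exact permutation tests (scipy 1.17.1). Sites of all 4 libraries were compared with limma 3.58.1 on median-centred log2 fold enrichment, at a Benjamini-Hochberg adjusted p of 0.05, with code tested on simulated data. Shares carry Wilson 95% intervals. Alternatives were other merging rules, a −log10 q of at least 5, lists cut to the shortest, autosomes alone, other distances, motifs and mark lists, a replicate block and leaving out each library.

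The rule for named genes took listed genes whose strongest site within 50 kb was called in at least 3 libraries or in both libraries of 1 genotype alone, the 8 strongest sites of each of 5 patterns, the 10 smallest limma p-values, and Pou5f1, Nanog, Sox2 and Spen. In place of the strongest site, the site called in the most libraries was used for each listed gene. Other names, and which sequences are printed, were chosen after the values were seen. Some listed genes enter the counts and are not reported here by name. The sites and lists were chosen with earlier results of these data known.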

Additional observations from a re-analysis of the deposited data

How the results depend on the processing

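Of 150 results recomputed under another setting, 129 were counted as kept. For differences this asked for the same sign alone, and for counts a similar size. The median log2 difference of 0.017 without Spen KO replicate 2, against 0.13, thus counted as kept. The replicate block cannot change a difference of library means, so those results were kept by construction. Without WT replicate 1, the differences of Spen KO minus WT reversed for median log2 fold enrichment (-0.16), promoters (2.22 points), the octamer (-0.0376), H3K4me3 (0.228), H3K9me3 (-1.18) and multi-copy sequence (-1.11). Leaving out each library in turn, they ranged from -0.16 to 0.42, -49.9 to 2.22, -0.0376 to 1.69, -32.9 to 0.228, -1.18 to 7.32 and -1.46 to 2.73. The lowest multi-copy value came without Spen KO replicate 1. H3K27Ac ranged from 13.6 to 17.0 points and G and C from -8.52 to -1.59. With the mark list of the same genotype H3K9me3 was -0.691 points, and with lists cut to the shortest multi-copy sequence was -0.585. Away from promoters, a setting added after seeing the data, H3K4me3 was 0.426 and H3K9me3 -3.03. At a −log10 q of at least 5 the WT pair held 17 sites, all 4 libraries 110, and WT R2 with both Spen KO libraries 450, which was 284 in lists cut to the shortest. At 10 kb, 2 LIF pathway genes, 3 silencing genes and 0 Spen partners had a site in 2 libraries. Spen partners were 9 at 100 kb and 1 in lists cut to the shortest, where early lineage regulators were 4. The causes were not tested. limma made 0 calls under each alternative, with a smallest adjusted p of 0.0665 without Spen KO replicate 1 and 0.989 without centring. With the replicate number as a block it was 0.624, with 0 calls, and the block left each library difference as it was (H3K27Ac 15.3). Deviations of libraries with the same number correlated at -0.076, so the numbers were not treated as pairs.

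Sequencing depth is unknown, a missing call can lie just under the threshold, and 2 libraries per genotype from 1 knockout clone cannot separate genotype from clone.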
